A study of Bos taurus with 16 samples.

Results

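The ASB genes encode proteins with ankyrin repeats and a SOCS box, the adaptor subunits of a group of ubiquitin ligases. Here 10 ASB genes were followed in the muscle of newborn Hanwoo calves, ASB2, ASB4, ASB5, ASB8, ASB10, ASB11, ASB12, ASB14, ASB15 and ASB18, out of 18 ASB genes and 34109 genes in the deposited tables. They were selected by gene ID through their symbols. ASB5 was singled out because of its difference between the diets in round muscle, so the values of that comparison describe the genes and carry no test here.

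In these ligases the SOCS box of the adaptor binds the Elongin B and Elongin C pair and, through it, the scaffold Cullin 5 with its RING partner RNF7. The ankyrin repeats bind the protein that is to be ubiquitinated. Cullin 5 is switched on when the small protein NEDD8 is attached to it. Several ASB genes are known for their expression in striated muscle, where ASB2 directs filamins and desmin to degradation and ASB15 has been tied to protein turnover and muscle growth.

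Muscle was taken at birth from 8 male calves of the Hanwoo breed of cattle (Bos taurus). The dams of 4 control calves were fed 100% of the nutritional requirement, and those of 4 treated calves 150% from mid to late pregnancy. Each calf gave round muscle, from the hind limb, and sirloin muscle, so that 16 libraries formed 4 groups of 4. Round and sirloin libraries with the same replicate number within a diet were taken to come from the same calf. All calves were kept from colostrum, and no group received another treatment. Each library is RNA from whole tissue, in which fewer cells of a type and less RNA per cell cannot be told apart. Levels are given as TPM, transcript levels scaled to a fixed total, which are also scaled to transcript length and can be set beside each other between genes.

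The libraries held 44473011 to 72446933 counts, and all 8 genes of the skeletal muscle list were detected, with a summed level of 50305 to 95765 TPM. Libraries of 3 calves stood apart. The calf of control replicate 2 had the 2 deepest libraries. Its round muscle held 1471 TPM of the 5 fibroblast genes against 271 to 306 TPM in the other control round libraries, and 72.7 TPM of the 4 tendon genes against at most 11.9 TPM in any other library. Treated replicate 2 had 85011 TPM of the 10 slow fibre genes in round muscle, with 15903 to 41185 TPM in the other libraries. Treated replicate 4 had 3777 TPM of the 5 adipocyte genes in sirloin muscle, with at most 15.0 TPM elsewhere.

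All 10 ASB genes were detected in all 16 libraries, with mean levels from 3.02 to 289 TPM. ASB5 had the highest mean level, 289 ± 254 TPM (SD, n = 16), and ASB2 came next with 202 ± 94.5 TPM. ASB5 was above ASB2 in 8 of 16 libraries, and by the median ASB2, at 196 TPM, stood above ASB5, at 180 TPM, so the order of these neighbours was not settled. ASB12 followed with 92.6 ± 20.04 TPM, below ASB2 in 15 of 16 libraries and above ASB11 in 16. ASB11, known to direct the apoptosis protein BIK to degradation, was measured at 36.0 ± 7.83 TPM and ASB8 at 27.6 ± 7.79 TPM, with ASB11 the higher in 13 libraries.

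The remaining members were lower. ASB8 lay above ASB15 in 16 of 16 libraries. ASB15 (9.51 ± 4.55 TPM), ASB18 (9.15 ± 5.06 TPM), ASB10 (7.08 ± 1.84 TPM) and ASB4 (6.86 ± 3.56 TPM, SD, n = 16 each) did not differ beyond their spread, as each was above the next in only 9 or 10 of 16 libraries. ASB14 was the lowest at 3.02 ± 1.55 TPM and was below ASB4 in 15 libraries. Its counts carry a limit, since the reference gene table lists DNAH12 both as a synonym and as the neighbour of ASB14, and reads of the pair may have been split. The counts behind these levels ran from 49 in the lowest library of ASB4 to 70191 in the highest library of ASB5.

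**Figure D1:**
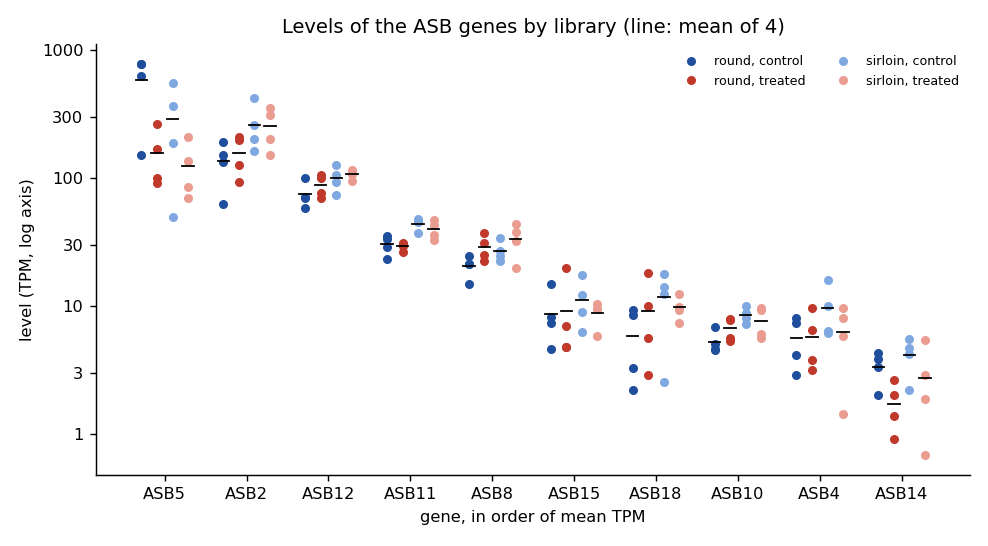
Level of the 10 ASB genes in each of the 16 libraries (TPM, log axis), in order of mean level, with points for libraries, colours for the 4 groups and a line at the mean of each 4. ASB5 spans 50.0 to 785 TPM, while ASB12 and ASB11 stay within narrow bands.

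ASB5 ranged from 50.0 to 785 TPM, a 15.7-fold span, against 6.66-fold for ASB2 and 2.17-fold for ASB12, the members next in level. Members of lower level also had wide spans, 11.1-fold for ASB4, 8.13-fold for ASB14 and 8.10-fold for ASB18. The span of ASB5 contains the round diet difference by which it was chosen. Within treated calves it was 2.87-fold in round and 2.99-fold in sirloin muscle, against 2.24-fold and 2.32-fold for ASB2. Some members had wider spans there than ASB5, such as ASB18 in treated round (6.24-fold) and ASB14 in treated sirloin (7.92-fold). Within control sirloin the span of ASB5 was 11.2-fold, against 2.59-fold for ASB2. In round muscle of control calves ASB5 was measured at 624, 151, 775 and 785 TPM in replicates 1 to 4. In round muscle of treated calves the values were 92.5, 266, 170 and 101 TPM. The control library of replicate 2 lay inside the treated range, so the groups overlapped, while the other 3 control libraries were all above every treated library.

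The group means of ASB5 in round muscle were 584 ± 298 TPM in control and 157 ± 80.3 TPM in treated calves (SD, n = 4 each). The log2 fold change of treated over control on the counts was -2.07 with a standard error of 0.513. Without control replicate 2, the calf with the high fibroblast and tendon signal, it was -2.44. The part of the fibroblast and tendon signal in the low ASB5 level of that calf was not tested.

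In sirloin muscle ASB5 was measured at 558, 50.0, 190 and 367 TPM in control replicates 1 to 4. The treated calves had 85.2, 209, 136 and 69.7 TPM. Control replicate 2 was again low, and here it had the lowest level of all 16 libraries. Control replicate 3 also lay within the treated range, so that only control replicates 1 and 4 stood above the treated calves. The mean was 291 ± 220 TPM in control and 125 ± 62.6 TPM in treated calves (SD, n = 4 each).

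The sirloin libraries were not used to choose ASB5, and the difference between the diets was tested there. The log2 fold change was -1.44 (standard error 0.612), and it did not pass the test (edgeR quasi-likelihood test, adjusted p = 0.876, unadjusted p = 0.0382). The value was -0.84 without control replicate 1 and -1.81 without control replicate 2. The sirloin calves come from the same animals as the round libraries that singled out ASB5 and are therefore not an independent set of calves.

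The share of ASB5 among the ASB transcripts was highest in control round muscle, although the ranges of the groups overlapped. This share contains the round diet difference by which ASB5 was chosen, so its order between the round groups follows from the choice. Of the summed TPM of the 10 members it made up 36.0% to 72.0% in control round muscle, with a median of 70.6%. In treated round muscle the share was 19.1% to 40.7%, in control sirloin 11.2% to 58.2%, and in treated sirloin 16.4% to 28.7%. The other 9 members summed to 290 ± 43.4 TPM in control and 336 ± 67.3 TPM in treated round muscle, and to 478 ± 122 and 470 ± 115 TPM in control and treated sirloin (SD, n = 4 each).

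**Figure D2:**
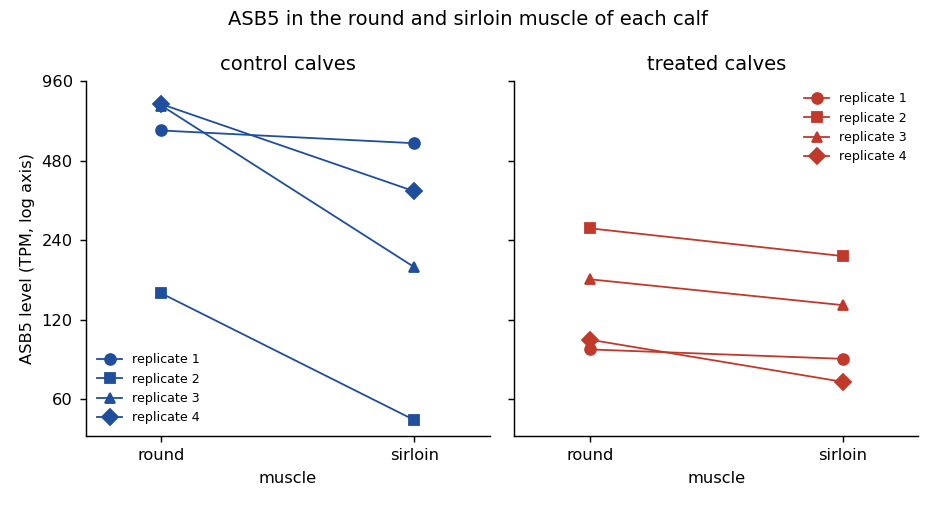
ASB5 level (TPM, log axis) in the round and sirloin muscle of each calf, with a line joining both libraries of a calf, control calves on the left and treated calves on the right. All 8 lines run downward from round to sirloin, and control replicate 2 runs from 151 to 50.0 TPM, below the other control calves.

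Between the diets in round muscle, ASB5 was the member with the largest log2 fold change. Over all 21677 genes tested, 0.0185% passed an adjusted p of 0.05 with edgeR and 0.208% with DESeq2, and nothing is read from these shares about the members, since this comparison was used to choose ASB5. ASB14 had the next lowest log2 fold change, -1.01 (standard error 0.379), from 2.04, 4.31, 3.34 and 3.85 TPM in control and 2.02, 2.64, 0.916 and 1.40 TPM in treated replicates. Control replicate 1 was as low as the treated calves in ASB14, and the groups overlapped. No member separated the diets without overlap in round muscle, where 0.567% of all genes did so with treated libraries lower and 1.18% with treated libraries higher.

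The other 8 members had log2 fold changes of -0.17 (ASB11) to 0.47 (ASB18) in round muscle, each smaller than its standard error or close to it. The median over the 9 members other than ASB5 was 0.11, beside 0.02 over all genes. ASB2, at a level close to that of ASB5, was measured at 63.0, 133, 152 and 193 TPM in control and at 198, 210, 93.8 and 126 TPM in treated calves. The groups overlapped, and the log2 fold change came to 0.11 (standard error 0.358).

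The diet values of ASB15 and ASB18 in round muscle depended on single libraries. ASB15 was measured at 14.9, 8.26, 4.65 and 7.40 TPM in control and at 7.09, 19.8, 4.82 and 4.80 TPM in treated replicates. ASB18 was at 8.50, 2.23, 3.31 and 9.33 TPM in control and at 2.90, 18.1, 5.69 and 9.99 TPM in treated replicates. Both were highest in the library of treated replicate 2, the one with 85011 TPM of slow fibre genes. Without that calf the log2 fold change of ASB15 was -0.65 in place of 0.07, and that of ASB18 was -0.02 in place of 0.47. Other calves moved them as well: over the omission of each calf ASB15 ranged from -0.65 to 0.50, the highest without control replicate 1, and ASB18 from -0.02 to 0.81, the highest without control replicate 4. The part of the slow fibre genes in these values was not tested.

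In sirloin muscle 9 of 10 members had a log2 fold change below 0 and ASB8 was at 0.00 (standard error 0.242). The median over the members was -0.43, beside 0.03 over all genes. Muscle genes outside the family had values of the same sign: all 8 genes of the skeletal muscle list were below 0 (median -0.37), as were all 9 fast fibre genes tested (median -0.32). None of the members passed the test, where 0.00918% of 21776 genes did, and 1 member, ASB5, had an unadjusted p under 0.05, as did 3.91% of all genes. DESeq2 called 13 genes (0.0597%) and no member. No member separated the diets without overlap, where 0.248% of all genes did so with treated libraries lower and 2.74% with treated libraries higher. The members do not make 9 independent observations, since they were measured in the same 8 libraries and several of them vary together.

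After ASB5, the lowest log2 fold changes in sirloin were those of ASB14 and ASB4. ASB14 was -0.80 (standard error 0.518, edgeR adjusted p = 0.876), from 5.60, 4.69, 4.26 and 2.21 TPM in control and 5.46, 1.91, 2.93 and 0.689 TPM in treated replicates. Its lowest library was that of treated replicate 4, which held the adipocyte signal, and without that calf the value was -0.50. ASB4, known as a gene of the vasculature, was -0.78 (standard error 0.528, edgeR adjusted p = 0.876), from 6.23, 10.1, 16.03 and 6.42 TPM in control and 8.12, 1.44, 9.72 and 5.92 TPM in treated replicates. Without treated replicate 2, which had 1.44 TPM, ASB4 was -0.45, and without control replicate 3, which had 16.03 TPM, it was -0.41. In both genes the groups overlapped.

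ASB15 and ASB18 were also below 0 in sirloin, unlike in round muscle. ASB15 was measured at 17.6, 6.28, 8.98 and 12.2 TPM in control and at 9.45, 9.62, 10.5 and 5.87 TPM in treated calves, and the log2 fold change was -0.58 (standard error 0.351, edgeR adjusted p = 0.876). ASB18 was at 14.2, 2.56, 12.5 and 17.9 TPM in control and at 7.46, 12.5, 9.35 and 9.94 TPM in treated calves, with -0.48 (standard error 0.470, edgeR adjusted p = 0.923). The treated values lay inside or next to the control range in both genes. ASB18 of control replicate 2 was low in both muscles, at 2.23 and 2.56 TPM, as was ASB5.

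Other methods gave other values in sirloin. With limma on the deposited TPM the median log2 fold change of all genes in sirloin was 0.14, against 0.03 on counts, and ASB12 and ASB18 came to 0.12 and 0.02 in place of -0.10 and -0.48. ASB5 was -0.88 with limma on TPM and -1.05 with limma-voom on counts, against -1.44 with edgeR, so that its direction was kept and the scale was not the only difference between these fits.

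**Figure D3:**
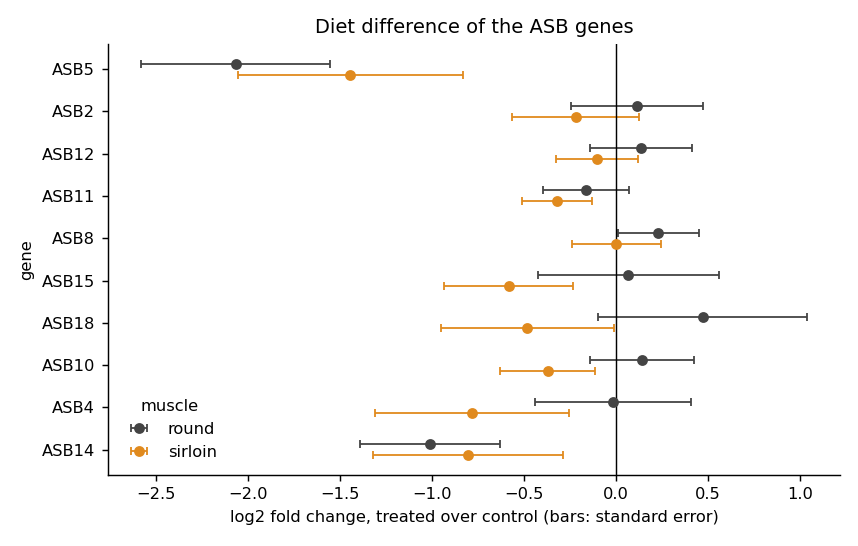
Log2 fold change of treated over control calves from the counts for each ASB gene (point, with its standard error as a bar), in round muscle (dark) and sirloin muscle (orange), 4 against 4 calves each. ASB5 lies farthest from 0 in both muscles, at -2.07 and -1.44, ASB14 is next in both, and the bars of most others reach or come close to 0.

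The diet effect was set against the muscles by the difference of both log2 fold changes, which contains the round contrast and is a description. For ASB5 it was -0.64 with a standard error of 0.858, and with the calf as a block, which takes up the shared level of both muscles of an animal, it was -0.84 with a standard error of 0.345. The value thus lay within its standard error without the block and exceeded it with the block. Which member was farthest from 0 also depended on the block. Without it this was ASB18 (0.93, standard error 0.814). With it this was ASB5, but ASB4 was nearly as far, at 0.82 (standard error 0.620), while ASB18 was at 0.65 (standard error 0.432). No gene of 22877 was called in this contrast by edgeR or DESeq2, while 637 genes by edgeR and 290 by DESeq2 had an unadjusted p under 0.05.

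Between the muscles, ASB5 was higher in round than in sirloin muscle in 8 of 8 calves, and was the only member with this direction. The ratio of round over sirloin TPM was 1.12, 3.02, 4.09 and 2.14 in control replicates 1 to 4 and 1.09, 1.27, 1.25 and 1.44 in treated replicates. The treated calves had ratios of similar size, whereas the control calves spread from close to 1 to above 4. The ratios of the control calves include the round levels by which ASB5 was singled out. Of all genes, 0.656% were higher in round muscle in all 8 calves on TPM, and 1.15% on CPM, where ASB5 also had this direction in 8 of 8.

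The log2 fold change of round over sirloin for ASB5 was 0.75 (standard error 0.431), and it did not pass the edgeR quasi-likelihood test over the 16 libraries (adjusted p = 0.855). With the calf as a block it was 0.86 with a standard error of 0.173 and an edgeR adjusted p = 0.0557, still above the threshold. Both fits contain the round libraries whose diet difference singled out ASB5, so for this gene they are not independent of that choice. The block brought the genes called from 14 (0.0612% of 22877) to 109 (0.476%), and no ASB member was among them. The summed level of the 6 smooth muscle and pericyte genes was also higher in round muscle in 8 of 8 calves, at 132 to 311 TPM in round and 99.6 to 184 TPM in sirloin libraries. Its part in the ASB5 difference was not tested.

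The other 9 members had log2 fold changes below 0, that is toward sirloin. ASB2 was measured in sirloin at 162, 203, 420 and 259 TPM in control and at 202, 314, 351 and 151 TPM in treated calves. On TPM it was higher in sirloin in 8 of 8 calves, by 1.02-fold to 3.74-fold, and on CPM in 7 of 8. The log2 fold change was -0.74 (standard error 0.262, edgeR adjusted p = 0.695), and with the calf block the adjusted p was 0.149.

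ASB11 was higher in sirloin in 8 of 8 calves on both scales, by 1.07-fold to 1.93-fold on TPM, where 2.52% of all genes on TPM and 1.34% on CPM had this direction in all calves. It was measured at 29.3, 23.6, 33.7 and 35.6 TPM in control round and at 37.3, 45.5, 46.0 and 48.3 TPM in control sirloin. The treated calves had 26.3, 31.1, 29.4 and 30.8 TPM in round and 42.8, 33.2, 47.4 and 36.4 TPM in sirloin. On TPM all sirloin libraries of a diet were above all round libraries of that diet, and the share of all genes that did so is not given here. On CPM the treated libraries overlapped, with 25.1 in sirloin replicate 2 and 27.4 in round replicate 4. The log2 fold change was -0.40 (standard error 0.140), with an edgeR adjusted p of 0.695 and, with the calf block, 0.164.

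The remaining members were less regular within calves. ASB10, in which variants have been linked to glaucoma, was higher in sirloin in 6 of 8 calves, with 4.53 to 7.97 TPM in round and 5.66 to 10.1 TPM in sirloin libraries and a log2 fold change of -0.45 (standard error 0.183, edgeR adjusted p = 0.746). ASB12 was higher in sirloin in 7 of 8 calves on TPM and in 5 on CPM, with 58.6 to 106 TPM in round and 74.0 to 127 TPM in sirloin. ASB4, ASB8, ASB15 and ASB18 were higher in sirloin in 6 calves each and ASB14 in 5. ASB8 ranged from 14.9 to 37.4 TPM in round and from 19.9 to 43.7 TPM in sirloin.

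In the fit without the calf block, an unadjusted p under 0.05 was reached by 3 members, ASB2, ASB10 and ASB11, against 6.33% of all genes. With the calf as a block, the unadjusted edgeR p was 0.00034 for ASB5, 0.0036 for ASB2, 0.0045 for ASB11 and 0.0087 for ASB10. It was 0.026 for ASB18 and 0.047 for ASB12, and above 0.05 for the other members. The share of all genes under 0.05 in the blocked fit is not given here. No member passed the adjusted threshold in either fit. The adjusted p-values of the diet comparisons measure the spread between single samples of different calves, of which there were 4 in each group. Between the muscles, those without the block treat both libraries of a calf as separate samples. Those with the block measure the spread of the difference between the muscles within calves, of which there were 8.

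**Figure D4:**
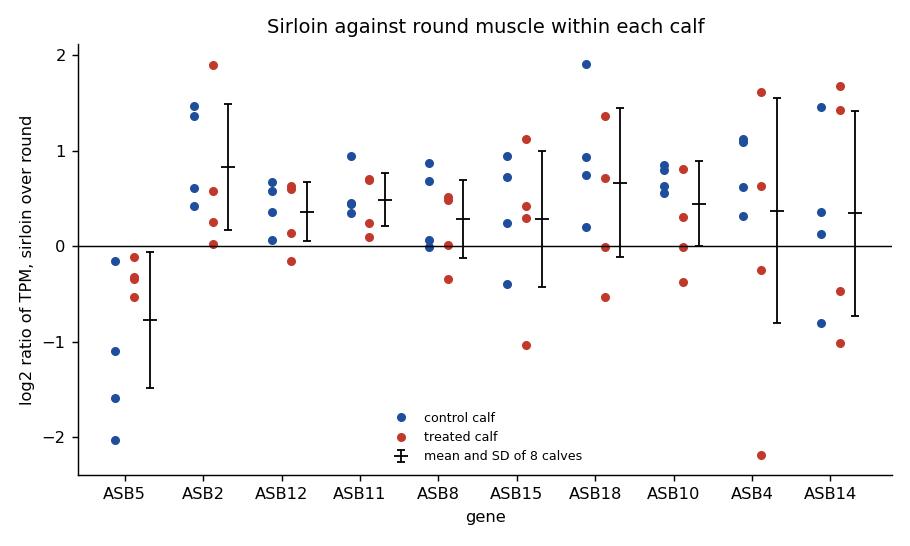
Log2 ratio of sirloin over round TPM of each ASB gene within each calf (blue for control, red for treated), with the mean and SD of the 8 calves beside the points. All points of ASB5 are below 0 and all points of ASB2 and ASB11 above 0, while the other members have calves on both sides.

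The 5 genes whose pattern was most like that of ASB5 were looked up among 12314 genes with a mean CPM of at least 1, by the correlation of log2 CPM over the 16 libraries. The libraries are pairs from 8 calves and share diet groups, so the coefficients describe this set and carry no p. XIRP1, which encodes an actin-binding Xin repeat protein of muscle, had Pearson's r = 0.964 (Spearman's coefficient 0.915). ABRA, which encodes an actin-binding protein of striated muscle, had r = 0.930 (Spearman 0.885). CHTOP, an RNA export factor, had r = 0.950 (Spearman 0.962), PPP2CB, a catalytic subunit of protein phosphatase 2A, r = 0.903, and DUSP16, a phosphatase of MAP kinases, r = 0.899.

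These genes moved over very different ranges. XIRP1 covered 42.3 to 1249 TPM, ABRA 5.62 to 209 TPM, and CHTOP only 75.8 to 138 TPM. The mean of XIRP1 was 868 ± 491 TPM in control and 231 ± 135 TPM in treated round muscle, and 442 ± 435 and 171 ± 117 TPM in control and treated sirloin (SD, n = 4 each). XIRP1 in control replicate 2 was at 209 TPM in round and 42.3 TPM in sirloin, low as ASB5 was in this calf. Because XIRP1 was chosen for its correlation with ASB5 over these same libraries, such likeness follows from the choice and is no separate result.

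**Figure D5:**
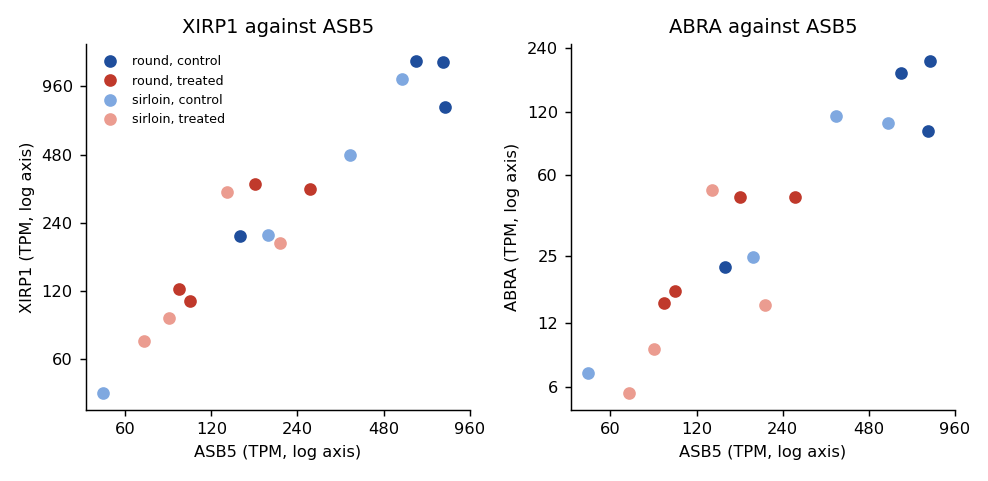
Level of XIRP1 (left) and ABRA (right) against the level of ASB5 in the 16 libraries (TPM, log axes), coloured by group. The points of the 4 groups lie along a shared rising band, which follows from the choice of both genes by their correlation with ASB5. The sirloin library of control replicate 2 is the lowest in ASB5 and XIRP1.

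By the same coefficient no other member came near this likeness. The highest coefficients with ASB5 among the members were those of ASB15 (r = 0.417, Spearman 0.453) and ASB18 (r = 0.382, Spearman 0.500), and the lowest was that of ASB8 (r = -0.19). With the group means removed, ASB18 reached r = 0.794, and this value was not computed for the 5 genes most like ASB5. Among the pairs of members the highest coefficients were 0.748 for ASB10 and ASB11, 0.721 for ASB2 and ASB10, and 0.612 for ASB15 and ASB18, over the same 16 libraries.

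Of the 8 other ASB genes, 7 could be tested and none passed in either direction in any comparison. ASB16 was the most abundant of them, at 20.6 ± 8.78 and 22.8 ± 11.9 TPM in control and treated round and 30.9 ± 12.9 and 24.9 ± 13.3 TPM in control and treated sirloin muscle (SD, n = 4 each). ASB17 had 0 counts in all libraries.

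The subunits that the ASB adaptors share were measured in all groups, and 0 of 5 passed in either direction. ELOB, which encodes Elongin B, was at 185 ± 21.8 and 226 ± 65.4 TPM in control and treated round muscle and at 177 ± 9.96 and 217 ± 21.1 TPM in sirloin (SD, n = 4 each). In sirloin its treated libraries (191 to 242 TPM) were all above its control libraries (164 to 186 TPM), as were those of 2.74% of all genes, and on the counts the log2 fold change was 0.11 (standard error 0.171, edgeR adjusted p = 0.996). CUL5, the cullin scaffold, was at 24.3 ± 3.43 TPM in control and 19.3 ± 1.64 TPM in treated sirloin, and the fitted log2 difference was -0.51 (standard error 0.176, edgeR adjusted p = 0.876).

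None of 6 neddylation genes, 12 other SOCS box genes and 7 genes listed as ASB targets or partners passed in either direction either. The filamin FLNC, a target of ASB2, was at 2456 ± 1168 TPM in control and 1127 ± 483 TPM in treated round muscle, and at 993 ± 754 and 651 ± 269 TPM in sirloin (SD, n = 4 each). Its log2 fold change of round over sirloin was 1.09 (standard error 0.351, edgeR adjusted p = 0.642), in the direction of ASB5 and not of ASB2. DES, which encodes the intermediate filament desmin, was at 3864 ± 711 and 5171 ± 1925 TPM in control and treated round muscle and at 5619 ± 1555 and 6423 ± 1656 TPM in sirloin. Of the fibre type lists, the 10 slow fibre genes all had log2 fold changes above 0 for diet in round muscle (median 0.77) and 8 were below 0 in sirloin (median -0.22). All 9 fast fibre genes tested were below 0 in round (median -0.19) as in sirloin, and no gene of either list passed. The slow fibre values in round include the library of treated replicate 2 with its 85011 TPM.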

How the data were processed

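Total RNA of both muscles was sequenced on the Illumina platform. The sources differ on library preparation: the study's methods describe a stranded kit with removal of rRNA and globin RNA, and the labels a kit with poly(A) selection. They also differ on tools: the methods name Trimmomatic, SortMeRNA, HISAT2, Bowtie2 and StringTie, and the submitters' processing notes FastQC, Trimmomatic, STAR, featureCounts, DESeq2 and ARS-UCD1.2. The authors deposited raw read counts per gene, without normalization, and, as normalized values, TPM per gene and library. The TPM sums were 1000000 in both libraries of control replicate 2 and 999756 to 999858 in the other 14 libraries. Whether the TPM of that calf was made in another way was not tested. Because the counting tool and strand setting are not certain, reads of overlapping genes cannot be assigned with certainty. Deposited tables of the authors' own fold changes and p-values were not used.

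Symbols were assigned to gene IDs from the RefSeq table of another assembly (ARS-UCD2.0) for 30762 of 34109 genes, and no coordinates were taken from it. The counts were tested with edgeR 4.0.16 (TMM, glmQLFit and glmQLFTest, two-sided, R 4.3.3), keeping genes with at least 1 count in any library of the fit, with Benjamini-Hochberg adjustment over all genes tested and a threshold of 0.05. Diets were compared in each muscle by itself, and the muscles in a fit of all 16 libraries in 4 groups. DESeq2 1.42.0, limma 3.58.1 (voom, and log2(TPM + 0.1)), other normalizations, filters, a replicate block and the omission of each calf were the alternatives. The direction within calves was also taken on CPM, an alternative chosen after the data were seen. The scripts were tested on simulated data.

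The pairing of the muscles by calf was taken from the matching numbers in the labels. After removal of group means, libraries paired in this way correlated with r = 0.250 to 0.595 in 8 of 8 calves. Between different calves r was -0.342 to 0.281, so the ranges overlapped. The members and lists were chosen with earlier results of these data known. Named genes were all members, at most 4 of each pathway list by mean CPM, and the 5 genes most like ASB5. No 2 libraries were duplicates.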

Additional observations from a re-analysis of the deposited data

Results flagged for a closer look

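In round muscle of treated calves, ASB15 was at 19.8 TPM in replicate 2, far from the other 3 libraries of the group, which lay between 4.80 and 7.09 TPM. The gap to the nearest library was 0.847 of the range of the group, above Dixon's critical value for 4 samples. It was the only one of 40 group tests over the 10 members that met this criterion, and chance alone flags about 1 in 20 groups. The same library held the highest ASB18 level, 18.1 TPM, and the highest summed level of the slow fibre genes, 85011 TPM.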

How the results depend on the processing

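For diet in round muscle, 4 genes passed with edgeR, 45 with DESeq2, 1 with limma-voom, 1 with limma on TPM and 2 with the replicate block, and 0 to 3 when a calf was left out (689 to 1262 genes at an unadjusted p under 0.05 where the count moved). For diet in sirloin, 2 genes passed with edgeR, 13 with DESeq2, 0 with limma-voom (682 at an unadjusted p under 0.05), 1 with limma on TPM, 0 with the replicate block (463 unadjusted), and 0 to 1 when a calf was left out. Between the muscles, 14 genes passed with edgeR, 84 with DESeq2 and 109 with the replicate block, which there joins both muscles of a calf, and 13 to 19 when a calf was left out. For the difference of the diet effects, 0 genes passed with edgeR and 1 with the replicate block.

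The replicate block changed no call of a member. Across the diets the replicate numbers did not pair the calves: same-numbered libraries correlated with r = -0.067 to 0.188 in round and -0.154 to 0.164 in sirloin, with 1 of 4 above 0.1 in each. Of 310 values of members in the tested comparisons, 298 kept their direction, 12 reversed and none passed the threshold. The number of members called in round muscle (0 with edgeR, 1 with DESeq2) is no test, since that comparison chose ASB5. In sirloin, ASB8 was -0.000287 with limma-voom, and ASB12 was 0.12 and ASB18 0.016 on TPM. With a calf left out, ASB2 ranged from -0.43 to 0.13, ASB8 from -0.13 to 0.19 and ASB12 from -0.24 to 0.080 in sirloin, and ASB15 from -0.42 to 0.10 between the muscles. In each case the cause was not tested. The number of calves, 4 in a group, limits the precision of all these values.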

Other observations

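ASB9, an ASB gene outside the 10 members and the neighbour of ASB11, was singled out after its values were seen. It was close to the limit of detection, with 0 to 27 counts in a library. In round muscle it was at 0.0441, 0.199, 0 and 0.168 TPM in control and at 0.245, 0.412, 0.388 and 0.409 TPM in treated replicates. In sirloin it was at 0.119, 0.202, 0.168 and 0.163 TPM in control and at 0.283, 0.249, 0.308 and 0.442 TPM in treated replicates. The treated libraries were above the control libraries in both muscles without overlap on TPM, as were those of 1.18% of all genes in round and 2.74% in sirloin. On raw counts the sirloin groups overlapped, and the log2 fold change there was 0.79 (standard error 0.538, edgeR quasi-likelihood test, adjusted p = 0.876).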
